A study of Homo sapiens with 30 samples.

Results

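The integrated stress response and the unfolded protein response are represented here by 10 genes: ATF4, DDIT3, DDIT4, TRIB3, ASNS, PPP1R15A, SESN2, XBP1, HSPA5 and HERPUD1. They were chosen by name, with earlier results of these data known. All 10 were found among the 22339 genes with a symbol in the deposited table, where a gene with several transcript rows is taken as the row holding the highest summed deposited signal. The RNA came from 22Rv1 cells, an established human line of castration-resistant prostate cancer, and was measured by SLAM-seq while CDK9, the kinase that releases paused RNA polymerase II, was inhibited. Cells in every group received 800 µM 4-thiouridine (s4U), a uridine analogue that marks new RNA, for 30 min. One group of 3 libraries was collected at that point and is called 0 h. In the other 9 groups fresh medium held 800 µM s4U and one of 3 additions: the solvent DMSO, the CDK9 inhibitor KB742 at 1.2 µM, or the CDK9 inhibitor KI-ARv-03 at 4 µM. From each, 3 libraries were collected 2, 4 and 8 h later. That makes 30 libraries in 10 groups. Nothing in the labels says that the 3 libraries of a group came from separate cultures, so p-values measure the spread between these libraries, which may be technical. Groups follow the sample titles. The treatment entry of 8 of the 9 libraries titled 4 h does not name that time. A treatment entry for KB742 also writes the dose differently from the titles, and the description and protocol shared by all samples name another DMSO time.

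Cells that meet amino acid shortage, heme shortage, viral RNA or unfolded protein in the endoplasmic reticulum (ER) phosphorylate the initiation factor eIF2, which lowers translation in general and raises translation of ATF4, a transcription factor. ATF4 drives genes of amino acid supply such as ASNS, and, with continued stress, DDIT3, which encodes the transcription factor CHOP. In the unfolded protein response proper, the sensors PERK, IRE1 and ATF6 on the ER membrane act through eIF2, through splicing of the XBP1 messenger RNA, and through cleaved ATF6, which raise ER chaperones such as HSPA5 and degradation factors such as HERPUD1. Several of these messenger RNAs are known to be short-lived. Reads here come from the 3′ ends of transcripts, so the spliced and unspliced forms of XBP1 are counted together, and phosphorylation, translation and protein are not measured.

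The promoters of the ER genes carry the motifs through which the unfolded protein response acts, and they are shown for the genes whose values are followed most closely below. Sequences are from RefSeq on GRCh38.p14 and hold the 200 bases before the annotated transcription start, 5′ to 3′ on the strand of the gene. Capitals mark a match to the ER stress element (ERSE, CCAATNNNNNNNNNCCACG), to ERSE-II (ATTGGNCCACG) or to the C/EBP-ATF response element (CARE, TGATGNAA), each searched on both strands.
HSPA5 (chr9:125241344-125241543, minus strand): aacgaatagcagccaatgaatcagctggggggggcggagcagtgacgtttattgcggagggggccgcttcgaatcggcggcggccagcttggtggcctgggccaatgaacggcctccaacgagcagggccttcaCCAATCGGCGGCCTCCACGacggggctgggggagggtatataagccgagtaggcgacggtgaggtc
XBP1 (chr22:28800570-28800769, minus strand): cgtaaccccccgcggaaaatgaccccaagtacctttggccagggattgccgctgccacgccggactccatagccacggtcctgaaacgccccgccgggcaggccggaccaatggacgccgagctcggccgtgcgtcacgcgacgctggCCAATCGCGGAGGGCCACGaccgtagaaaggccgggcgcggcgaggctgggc
HERPUD1 (chr16:56931942-56932141, plus strand): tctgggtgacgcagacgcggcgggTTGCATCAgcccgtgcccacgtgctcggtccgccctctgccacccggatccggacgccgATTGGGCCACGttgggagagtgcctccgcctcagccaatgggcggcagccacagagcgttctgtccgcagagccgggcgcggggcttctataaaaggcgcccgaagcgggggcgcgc
ASNS (chr7:97872409-97872608, minus strand): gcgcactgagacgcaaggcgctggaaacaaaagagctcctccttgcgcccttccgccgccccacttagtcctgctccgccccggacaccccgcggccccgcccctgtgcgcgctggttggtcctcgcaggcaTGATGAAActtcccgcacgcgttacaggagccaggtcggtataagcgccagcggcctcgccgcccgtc
SESN2 (chr1:28259318-28259517, plus strand): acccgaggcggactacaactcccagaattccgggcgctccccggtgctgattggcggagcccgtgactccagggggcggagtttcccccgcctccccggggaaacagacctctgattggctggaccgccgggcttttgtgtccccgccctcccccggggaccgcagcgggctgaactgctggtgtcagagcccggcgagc

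ERSE was matched 66 bases before the start of HSPA5 and 52 bases before the start of XBP1. HERPUD1 had ERSE-II 117 bases before its start and, on the opposite strand, CARE 176 bases before it. CARE also lay 68 bases before the start of ASNS. No match overlapped another. SESN2 is shown because its level differed most between the inhibitors and DMSO, and none of the 3 motifs was matched in its window. All 10 genes had a promoter window, and the other 5 had no match either. Of 35116 RefSeq promoter windows of 300 bases (250 before and 50 after a start), 0.0769% held ERSE, 0.0541% held ERSE-II and 3.62% held CARE. A match describes these letters only.

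The level of a gene is given as CPM, reads per 1e6 reads of the library, after rescaling of the libraries, and its conversion level as the percentage the authors deposited under that name, which grows as s4U-labelled RNA replaces older RNA. A level is relative to the other genes of its library, and in these bulk samples fewer cells and less RNA per cell cannot be told apart. The libraries held 1414890 to 3968775 reads on the genes kept, with 11667 to 14337 genes detected. The luminal prostate markers KLK3, KLK2, HOXB13 and FOXA1 and the epithelial markers EPCAM, KRT8 and KRT18 had reads in all 30 libraries, from 6.02 to 36.3 CPM for KLK3 and from 57.3 to 263 CPM for HOXB13. The 13 markers of leukocytes, endothelium, fibroblasts and basal epithelium summed to 0.519 to 24.0 CPM, 5 of them, without any read, at 0 throughout. The highest of them was the collagen gene COL1A1 at up to 23.1 CPM, and their sum ran from 0.519 to 9.44 CPM at 0 h and from 13.9 to 24.0 CPM with DMSO at 8 h. The part of these markers in the results was not tested. The 0 h replicate 3 and the KB742 2 h replicate 2 stood apart from the other 2 libraries of their groups, and results that they change are given without them too. Mean conversion over a library's reads rose from 0.345% at 0 h to 1.23% with DMSO at 8 h in group means, and was 0.395% with KB742 and 0.343% with KI-ARv-03 at 8 h.

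With DMSO alone, most of the 10 genes lost level after 0 h. At 8 h, 7 of the 10 were lower than at 0 h by an adjusted p under 0.05 (limma across all genes tested, Benjamini-Hochberg), or 5 of 8 without DDIT4 and PPP1R15A, and none was higher. Of all 11409 genes tested, 29.1% were called lower in that comparison, and 2279 genes were called higher. The genes that fell were HERPUD1, DDIT3, XBP1, DDIT4, PPP1R15A, TRIB3 and HSPA5. Already at 4 h, 6 genes had fallen against 14.6% of all genes, and at 2 h 3 genes (HERPUD1, DDIT4 and PPP1R15A) against 2.63%. DDIT4 and PPP1R15A passed the filter on low reads only through the 0 h libraries, so a fall was built into their being tested and their calls support nothing. Without them the counts at 2 and 4 h were 1 and 5 of 8 genes. The 3 comparisons share the 0 h libraries. By design, time, longer exposure to s4U, the change of medium and DMSO cannot be told apart in them.

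The scaling matters for the background of these counts. With the deposited scaling in place of the rescaling, the median of all genes moved by -0.15, -0.38 and -0.59 on the log2 scale at 2, 4 and 8 h. The share of calls that were higher went from 40.7% to 8.12% at 8 h and from 28.2% to 2.36% at 4 h. The 10 genes had 5, 8 and 7 falls and no rise with the deposited scaling, where 714, 2726 and 4897 of all 11409 genes were called lower. DDIT4 and PPP1R15A, whose calls support nothing, are among the falls of the 10 genes at each time.

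**Figure D1:**
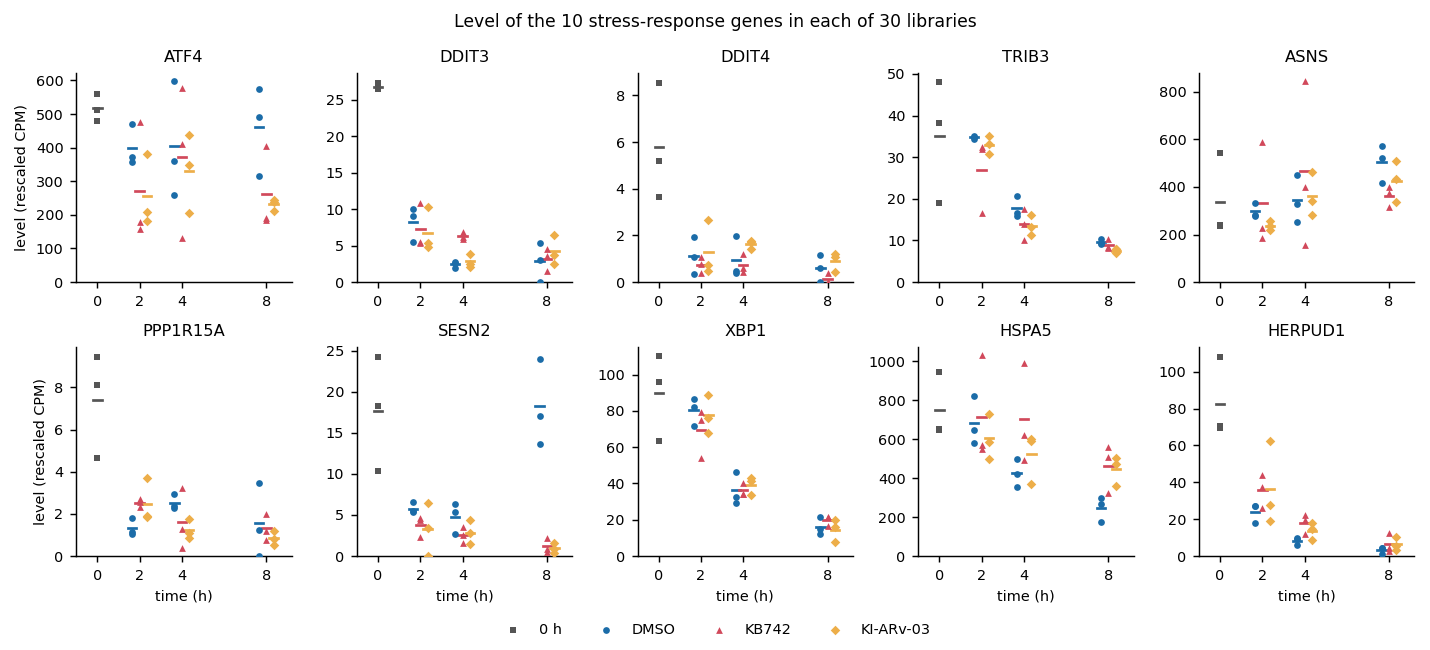
Level of the 10 genes (vertical axis, rescaled CPM, linear and starting at 0) against time in hours. Each point is 1 of 30 libraries (grey squares 0 h, blue circles DMSO, red triangles KB742, yellow diamonds KI-ARv-03) and bars are means of 3. With DMSO, HERPUD1, DDIT3, XBP1 and HSPA5 lie below 0 h at 8 h, and SESN2 is high only at 0 h and with DMSO at 8 h.

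HERPUD1 encodes a membrane protein of ER-associated degradation, the route by which misfolded proteins leave the ER for the proteasome. Its level at 0 h was 69.7, 70.4 and 108 CPM in the 3 libraries. With DMSO it was 27.0, 27.1 and 18.1 CPM at 2 h, 9.30, 5.97 and 9.85 CPM at 4 h, and 4.34, 4.25 and 0.922 CPM at 8 h. The groups do not overlap from one time to the next, and each later group lies wholly below the earlier one. The log2 difference from 0 h was -1.73 ± 0.48 (SE, adjusted p = 0.0449) at 2 h, -3.15 ± 0.48 (adjusted p = 4.12e-05) at 4 h and -4.44 ± 0.48 (adjusted p = 8.44e-08) at 8 h, by limma on log2(CPM + 1). The mean at 8 h was 0.0384 times that at 0 h. The call at 2 h was lost when any 1 of its 6 libraries was left out (adjusted p 0.0864 to 0.217), and those at 4 and 8 h were not.

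XBP1 encodes the transcription factor whose messenger RNA IRE1 splices. It stayed near its start for 2 h: 110, 95.9 and 63.6 CPM at 0 h, and 82.4, 86.8 and 71.8 CPM with DMSO at 2 h, which overlap. It was then at 32.8, 29.4 and 46.2 CPM at 4 h and at 12.4, 21.3 and 14.8 CPM at 8 h, with no overlap with any earlier group. The differences from 0 h were -0.13 ± 0.29 (adjusted p = 0.895) at 2 h, -1.28 ± 0.29 (adjusted p = 0.00239) at 4 h and -2.40 ± 0.29 (adjusted p = 4.29e-07) at 8 h in limma. XBP1 was also the only one of the 10 genes called between DMSO at 8 h and at 4 h, where 1.92% of all genes were called lower: it fell by 1.12 (limma adjusted p = 0.0394). That call was lost when any 1 of 5 of those 6 libraries (all but the DMSO 8 h replicate 2) was left out, with limma adjusted p up to 0.177. It was also lost when only these 2 groups were fitted (0.116) and in edgeR (0.0604).

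HSPA5 encodes BiP, the main chaperone of the ER lumen and the protein that holds the stress sensors inactive. At 0 h it stood at 649, 651 and 947 CPM. With DMSO it was at 822, 646 and 583 CPM at 2 h, 353, 500 and 422 CPM at 4 h, and 299, 266 and 176 CPM at 8 h. The 2 h libraries overlap those at 0 h, and the 4 h and 8 h libraries lie below both. The log2 difference from 0 h was -0.12 ± 0.30 at 2 h (adjusted p = 0.903), -0.81 ± 0.30 at 4 h (adjusted p = 0.0581) and -1.61 ± 0.30 at 8 h (adjusted p = 0.000118) in limma. At 4 h DESeq2 gave an adjusted p of 0.0199.

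Of the genes downstream of ATF4, DDIT3 started at 26.5, 26.5 and 27.3 CPM. CHOP, its product, is a pro-death transcription factor of prolonged stress. With DMSO the gene was at 5.47, 10.1 and 9.04 CPM at 2 h, 1.96, 2.79 and 2.65 CPM at 4 h, and 3.10, 5.41 and 0 CPM at 8 h. All 9 later libraries lie below the 3 at 0 h. The difference was -1.63 ± 0.48 at 2 h (limma adjusted p = 0.0689, and 0.00262 by DESeq2), -3.01 ± 0.48 at 4 h (8.43e-05) and -3.22 ± 0.48 at 8 h (7.7e-06). Between 4 and 8 h no difference passed (limma adjusted p = 0.859): the mean was 2.46 CPM at 4 h and 2.84 CPM at 8 h, while the difference on the log2(CPM + 1) scale, with 1 library at 0 reads, was -0.21. DDIT3 overlaps MARS1 in the RefSeq annotation, and the counting is not stated to use strand, so reads of the pair cannot be told apart with certainty. MARS1, a tRNA synthetase gene, was at 104 ± 18.1 CPM (SD, n = 3) at 0 h and 181 ± 52.9 CPM with DMSO at 8 h.

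TRIB3 encodes a pseudokinase that ATF4 and CHOP induce and that binds ATF4 in turn. It was at 48.1, 38.1 and 19.0 CPM at 0 h, with replicate 3, a library that stands apart, the lowest. With DMSO it was at 34.3, 34.9 and 35.1 CPM at 2 h, 16.6, 20.7 and 15.9 CPM at 4 h and 9.29, 10.4 and 9.22 CPM at 8 h. Only the 8 h group lies wholly below 0 h. The difference from 0 h was -0.85 ± 0.30 at 4 h (limma adjusted p = 0.0448) and -1.66 ± 0.30 at 8 h (7.84e-05). The 4 h call was lost without any single one of 5 of its 6 libraries, with adjusted p up to 0.226, and held without the 0 h replicate 3, where it was 0.00581.

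DDIT4 and PPP1R15A were thinly covered. DDIT4 encodes REDD1, which restrains mTORC1. PPP1R15A encodes GADD34, the phosphatase subunit that removes the phosphate from eIF2 and so closes the loop. DDIT4 was at 8.52, 3.66 and 5.19 CPM at 0 h (66 reads in all), and its group means with DMSO lay between 0.593 and 1.12 CPM (4 to 8 reads a group). PPP1R15A was at 9.44, 8.14 and 4.67 CPM at 0 h (89 reads), and its DMSO means lay between 1.35 and 2.53 CPM (10 to 18 reads a group). For both genes all 9 DMSO libraries lie below the 3 at 0 h. The limma difference at 8 h was -2.10 ± 0.43 for DDIT4 and -1.92 ± 0.45 for PPP1R15A, given as a description because both genes were tested only through their level at 0 h. With so few reads, the order of the DMSO times within either gene cannot be read.

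ATF4 itself and its target ASNS, asparagine synthetase, did not pass the test at any time. ATF4 was at 512, 478 and 560 CPM at 0 h and at 573, 491 and 317 CPM with DMSO at 8 h, which overlap. Its differences from 0 h were -0.38, -0.43 and -0.21 at 2, 4 and 8 h, each with an SE of 0.45 and adjusted p of 0.533 or more in limma. At 8 h the 95% interval of the difference ran from -1.13 to 0.72. ASNS was at 235, 240 and 541 CPM at 0 h, the highest value being that of the library that stands apart, and at 574, 523 and 415 CPM with DMSO at 8 h. The difference was 0.68 ± 0.43 (limma adjusted p = 0.197). With both libraries that stand apart left out, it was 1.07 (limma adjusted p = 0.0319), and over single libraries left out the adjusted p ran from 0.0577 to 0.45. With the deposited scaling the difference was -0.07 (0.918), so its sign depends on the scaling.

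**Figure D2:**
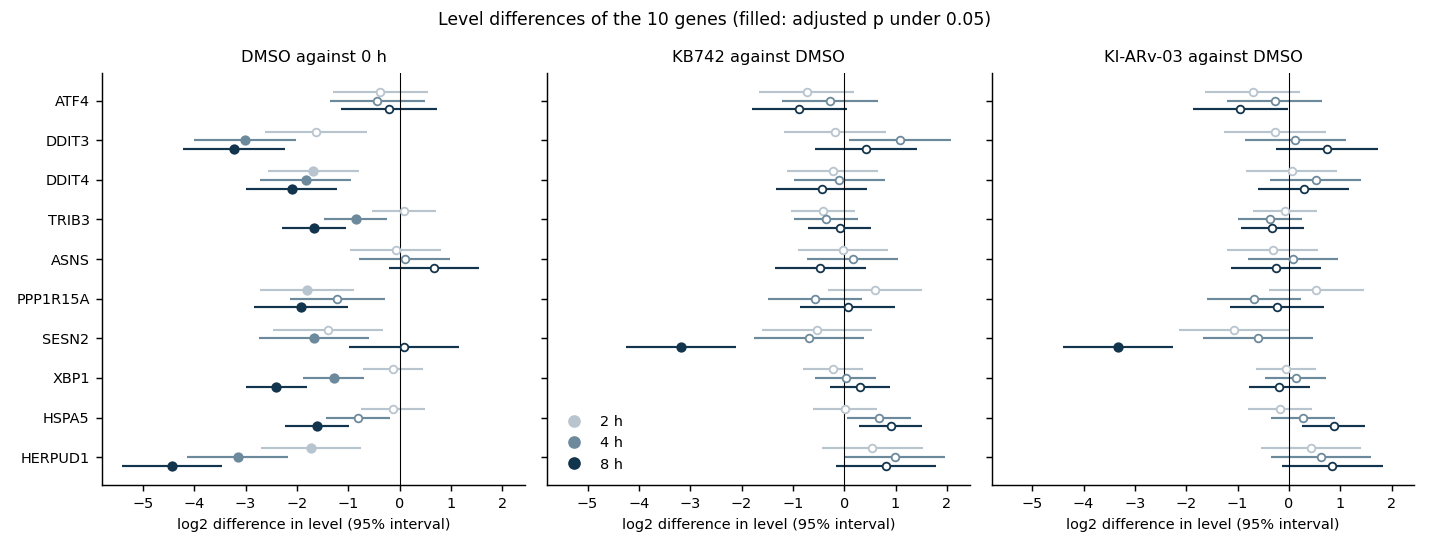
Log2 difference in level (horizontal axis) of the 10 genes for DMSO against 0 h, KB742 against DMSO and KI-ARv-03 against DMSO, at 2 h (light), 4 h (middle) and 8 h (dark). Lines are 95% intervals from limma, and filled points have an adjusted p under 0.05. The filled points against 0 h all lie to the left of 0 (SESN2 at 4 h among them), down to -4.44 for HERPUD1, and SESN2 at 8 h carries the only filled points of the inhibitors (-3.19 and -3.32).

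SESN2 followed another course. Sestrin 2 senses leucine and restrains mTORC1, and its gene is induced by ATF4 and also by p53. At 0 h it was at 18.3, 24.2 and 10.4 CPM. With DMSO it was at 6.56, 5.42 and 5.32 CPM at 2 h and 5.38, 6.37 and 2.65 CPM at 4 h, and at 8 h it stood again at 13.6, 17.0 and 24.0 CPM. The 8 h libraries overlap those at 0 h and lie above all 6 of 2 and 4 h. The difference from 0 h was -1.39 ± 0.52 at 2 h (limma adjusted p = 0.199), -1.67 ± 0.52 at 4 h (0.0237) and 0.08 ± 0.52 at 8 h (0.905). The 4 h call was lost without any one of the 0 h replicates 1 and 2 and the DMSO 4 h replicate 3, with adjusted p up to 0.117. Between DMSO at 4 h and at 8 h the difference was 1.75 ± 0.52, with an adjusted p of 0.0679 in limma and 0.0311 in DESeq2.

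SESN2 conversion was 0.682%, 0.894% and 1.34% at 0 h, and 29.5%, 29.2% and 25.5% with DMSO at 8 h, on 22, 44 and 26 reads. On the arcsine scale of the test the difference was 0.46 ± 0.03 (limma adjusted p = 1.29e-06). The read-weighted conversion was 9.98% over 42 reads at 2 h and 21.2% over 34 reads at 4 h, where no library reached the 20 reads set for the test.

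With either inhibitor SESN2 was not at that level at 8 h. It was at 0.801, 0.502 and 2.22 CPM with KB742 and at 0.808, 1.58 and 0.412 CPM with KI-ARv-03, 6 reads over each group against 92 with DMSO. All 6 inhibitor libraries lie below all 3 DMSO libraries. The difference from DMSO was -3.19 ± 0.52 for KB742 (limma adjusted p = 0.000919) and -3.32 ± 0.52 for KI-ARv-03 (adjusted p = 0.000448), and the 2 comparisons share the DMSO libraries. Both calls held when any single library was left out, with adjusted p up to 0.0141 and 0.00718. When limma was fitted to these 2 groups only, KB742 missed the threshold, with an adjusted p of 0.0555. At 2 and 4 h no difference of SESN2 from DMSO passed, the values being -0.54 and -0.68 for KB742 and -1.08 and -0.60 for KI-ARv-03. The effect at 8 h minus that at 2 h was -2.65 ± 0.74 for KB742 (limma adjusted p = 0.516 over all genes, unadjusted 0.00129) and -2.24 ± 0.74 for KI-ARv-03 (0.534, unadjusted 0.0052), so that a change of the effect with time did not pass.

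In order of mean level, SESN2 was at 18.2 CPM with DMSO at 8 h, 17.6 at 0 h, 5.77 and 4.80 with DMSO at 2 and 4 h, 3.77 and 3.27 with KB742 and KI-ARv-03 at 2 h, 2.86 and 2.55 with KI-ARv-03 and KB742 at 4 h, and 1.17 and 0.935 with KB742 and KI-ARv-03 at 8 h. Neighbours in this order overlap, except at the step from 0 h to DMSO at 2 h. The 3 genes whose mean level ran most like that of SESN2 over the 10 groups were DPH3 (r = 0.94), ZBTB43 (0.93) and IL6R (0.93), as a description over 10 group means that share libraries and scaling.

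For the other 9 genes no level differed from DMSO under either inhibitor at any time by limma. At 8 h 1 of 10 genes, SESN2, was called for each inhibitor, lower in both, against 0.605% of all genes called lower with KB742 and 0.99% with KI-ARv-03. In either direction the shares of all genes were 1.84% and 2.95%. Higher calls made up 67.1% of all calls at 8 h for KB742 and 66.4% for KI-ARv-03, and 86.7% and 87.1% with the deposited scaling, which moved the median of all genes by 0.28 and 0.24. The median difference of the 10 genes was -0.01 with KB742 and -0.21 with KI-ARv-03, beside -0.03 and 0.00 over all genes. At 2 h 0 of 10 genes were called with either inhibitor, against 0.0263% of all genes for each, and at 4 h again 0 of 10, against 0.114% and 0.0701%. By adjusted p, edgeR and DESeq2 also called 0 at both times. At an unadjusted p under 0.05 the limma counts were 0 and 1 at 2 h and 3 and 0 at 4 h, for KB742 and KI-ARv-03. The shares of all genes given here are by adjusted p, so these unadjusted counts cannot be read against them and are a description only.

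HSPA5 came nearest among the 9. At 8 h it was at 507, 325 and 559 CPM with KB742 and at 502, 361 and 475 CPM with KI-ARv-03, all above the 176 to 299 CPM with DMSO. The differences were 0.90 ± 0.30 (limma adjusted p = 0.133) and 0.87 ± 0.30 (0.115), with 95% intervals from 0.28 to 1.52 and from 0.25 to 1.49. ATF4 had means of 261 and 231 CPM with KB742 and KI-ARv-03 at 8 h beside 460 CPM with DMSO. Those differences were -0.87 (limma adjusted p = 0.394) and -0.95 (0.279), and only the KI-ARv-03 libraries lie wholly below DMSO. HERPUD1 was at means of 6.63 and 6.38 CPM beside 3.17 CPM, and its values overlap those of DMSO with both inhibitors. XBP1 at 8 h differed by 0.31 and -0.19, with overlapping libraries. TRIB3 differed by -0.09 and -0.32, and its KI-ARv-03 libraries, at 6.87, 7.92 and 7.83 CPM, lie below the 9.22 to 10.4 CPM of DMSO without passing the test (limma adjusted p = 0.606). DDIT3, at 5.87 to 6.88 CPM with KB742 at 4 h, lay above the 1.96 to 2.79 CPM of DMSO, with a difference of 1.08 ± 0.48 that did not pass over all genes (limma adjusted p = 0.992). HERPUD1 at that time, at 12.0, 22.2 and 19.4 CPM with KB742, also lay above the 5.97 to 9.85 CPM of DMSO (0.99 ± 0.48, limma adjusted p = 0.997).

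With DMSO, conversion of most of the testable genes was above 0 h at the later times. At 4 h 4 of the 5 genes tested (ATF4, TRIB3, XBP1 and HSPA5) exceeded 0 h, against 34.1% of all 7818 genes tested, and at 8 h 4 of 5 (ATF4, XBP1, HSPA5 and SESN2), against 42.7% of all 6469. At 2 h only TRIB3 did, 1 of 6, against 7.49% of all 8308. It was at 6.05%, 7.68% and 2.83% at 2 h, beside 0.992%, 0.861% and 0.544% at 0 h (limma adjusted p = 0.0188). That call was lost without the 0 h replicate 3 (0.0765) or the DMSO 2 h replicate 2 (0.088). DDIT3, DDIT4 and PPP1R15A had too few reads for any test of conversion.

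XBP1 conversion was 0.838%, 0.566% and 1.65% at 0 h, 8.67% to 13.5% with DMSO at 4 h, and 15.1% and 19.2% at 8 h, the remaining library of that group having only 16 reads. HSPA5 was at 0.196%, 0.160% and 0.25% at 0 h, 1.36%, 1.42% and 1.50% at 4 h, and at 8 h 2.76% and 2.77% in replicates 2 and 3, replicate 1 lying within the range of 4 h. ATF4 was at 0.594%, 0.729% and 0.505% at 0 h, 1.75%, 1.61% and 2.12% at 4 h and 1.94%, 3.62% and 3.18% at 8 h. For these 3 genes every DMSO library of 4 and 8 h lies above every 0 h library, with limma adjusted p of 0.00345 or less. How many of all genes separate in this way was not counted. Mean conversion of whole libraries did so too, from 0.289% to 0.408% at 0 h and from 1.01% to 1.12% with DMSO at 4 h. ASNS stayed low: its group means ran from 0.092% to 0.420% over all 10 groups, on 2105 reads or more a group, with SDs up to 0.461%, and none of its comparisons was called by limma in the fit of all 10 groups. Between DMSO at 4 and 8 h, 0 of 4 genes were called by limma, against 2.88% of all genes. Of the 4, 3 had an unadjusted p under 0.05, a threshold at which no share over all genes is given here.

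**Figure D3:**
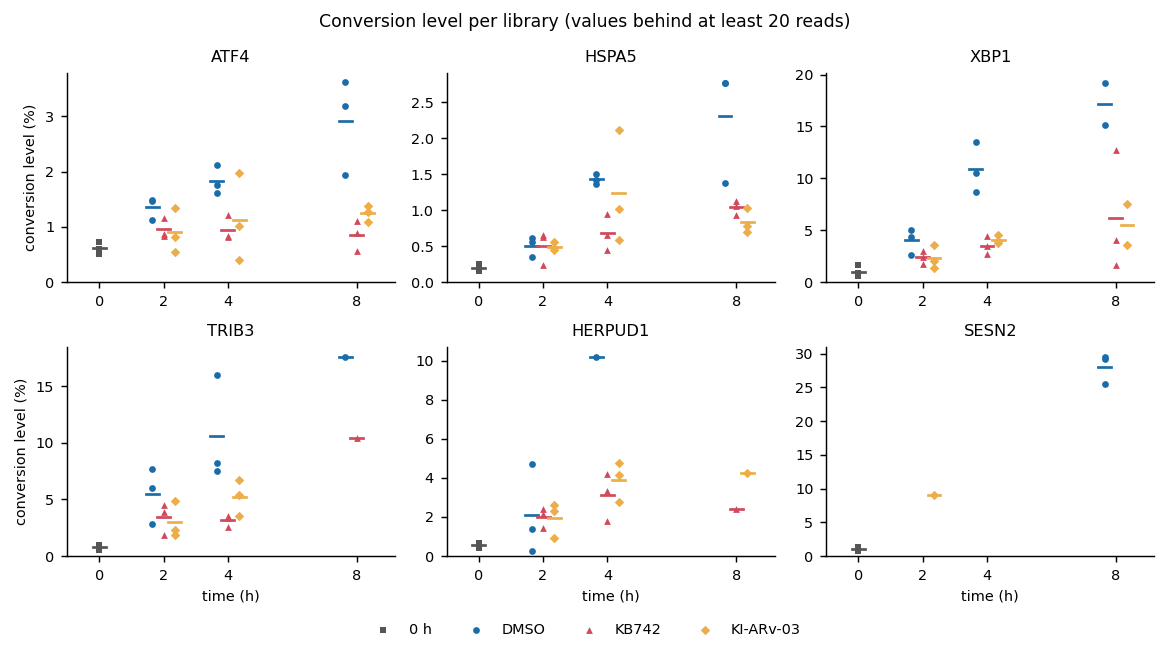
Conversion level in percent (vertical axis, starting at 0) of the 6 genes tested in at least 1 comparison other than ASNS, against time in hours, for values behind at least 20 reads. Each point is 1 library and bars are means of the points shown, 1 to 3 a group. With DMSO the means at 8 h reach 17.1% for XBP1 and 28.0% for SESN2, and the inhibitor points of ATF4, HSPA5 and XBP1 lie below DMSO at 8 h.

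At 8 h, 3 of the 4 genes tested had lower conversion with KB742 than with DMSO, against 34.2% of all 6238 genes, and 3 of 4 with KI-ARv-03, against 36.7% of all 6303. They were ATF4, XBP1 and HSPA5 in both cases, and ASNS was the gene not called (limma adjusted p = 0.0984 and 0.199). When only the groups compared were fitted, ASNS was called lower too (0.0362 with KB742 and 0.0429 with KI-ARv-03). ATF4 conversion was 1.11%, 0.557% and 0.889% with KB742 and 1.09%, 1.38% and 1.27% with KI-ARv-03, all below the 1.94%, 3.62% and 3.18% of DMSO (limma adjusted p = 0.000183 and 0.00276). HSPA5 conversion was 1.13%, 1.05% and 0.932% with KB742 (limma adjusted p = 0.00601) and 1.03%, 0.774% and 0.695% with KI-ARv-03 (0.00103), below each of the 3 DMSO libraries. So the RNA of HSPA5 was less converted with the inhibitors while its level was not lower. XBP1 was at 4.07%, 12.7% and 1.67% with KB742 (limma adjusted p = 0.00123) and at 7.51% and 3.58% with KI-ARv-03 (0.00253), replicate 2 of that group having 15 reads. For XBP1 the KB742 call was lost when only these 2 groups were fitted (0.0942), and the KI-ARv-03 call on a log2 scale of conversion (0.0856). Mean conversion of whole libraries moved the same way, as given above.

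At 4 h conversion of 3 of 5 genes was called lower with KB742 than with DMSO, against 16.1% of all 7614 genes. Mean conversion of whole libraries was 0.412% with KB742 and 1.08% with DMSO at that time. TRIB3 was at 2.55%, 3.58% and 3.34% beside 16.0%, 7.49% and 8.21% with DMSO (limma adjusted p = 0.0107), XBP1 at 2.67%, 3.45% and 4.40% beside 8.67% to 13.5% (0.012), and HSPA5 at 0.439%, 0.655% and 0.941% beside 1.36% to 1.50% (0.0479). None of the KB742 values reaches a DMSO value of its gene, and how many of all genes separate in this way was not counted. On a log2 scale of conversion none of these 3 calls held, with adjusted p of 0.0823 to 0.119. Without the DMSO 4 h replicate 1, TRIB3 (0.0636) and HSPA5 (0.0775) missed the threshold, and leaving out any of 5 of the 6 libraries ended the call of HSPA5.

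With KI-ARv-03 at 4 h conversion of 1 of 5 genes, XBP1, was called lower than with DMSO, against 6.38% of all 7629 genes. It was at 3.81%, 3.92% and 4.51% (limma adjusted p = 0.0367). That call was lost on the log2 scale (0.342) and without any single one of 4 of the 6 libraries, with adjusted p up to 0.122. In that group replicate 1 had a mean conversion over all its reads of 1.18%, beside 0.382% and 0.422% in the others. The same library had the highest ATF4 value, 1.98% beside 1.01% and 0.408%, and the highest HSPA5 value, 2.11% beside 0.591% and 1.02%. Without it ATF4 was called lower than DMSO (limma adjusted p = 0.00781). At 2 h no gene of the 6 tested was called with either inhibitor by limma, against 0.322% and 0.368% of all genes. None of the 6 reached an unadjusted p under 0.05 either.

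HERPUD1 and TRIB3 had too few reads at 8 h for a test, and their read-weighted conversion is given as a description. HERPUD1 was at 15.8% over 19 reads with DMSO, 2.47% over 44 with KB742 and 4.53% over 45 with KI-ARv-03. TRIB3 was at 18.3% over 52 reads, 7.41% over 54 and 6.32% over 51. Both are lower with the inhibitors in these pooled reads, and single libraries spread widely, from 2.13% to 12.4% for TRIB3 with KI-ARv-03.

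KB742 and KI-ARv-03 were given at different doses, so a comparison of the 2 is of each compound at its dose. No level of the 10 genes differed between them at 2, 4 or 8 h, where 0.0% of all genes were called, and edgeR and DESeq2 also called 0 of the 10 by level. Conversion was tested for ATF4, ASNS, XBP1 and HSPA5 at each time, and for TRIB3 and HERPUD1 at 2 and 4 h. None of these was called by limma, against 0.0% of all genes. DDIT3, DDIT4, PPP1R15A and SESN2 were not tested by conversion. At an unadjusted p under 0.05 there were 0 of the 10 as well at each time by level, beside 232, 157 and 240 of all genes. For SESN2 at 8 h the difference was 0.13 on the log2 scale with a 95% interval from -0.94 to 1.20, and for HSPA5 it was 0.03, from -0.59 to 0.65. These intervals leave room for differences of that size in either direction. By limma, a change of an inhibitor's effect between 2 and 8 h passed for 0 of the 10 genes by level, against 0.00877% of all genes for each compound. By conversion it passed for 0 of the 4 genes tested, against 3.93% of all genes for KB742 and 4.29% for KI-ARv-03.

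The rest of the pathway was followed in 5 lists of 78 other genes, all in the table. With DMSO at 8 h against 0 h, their counts stand beside 2279 rises and 3315 falls (29.1%) among all 11409 genes tested, with a median of -0.14. Their counts with the deposited scaling stand beside 433 rises and 4897 falls among all genes, with a median of -0.73. Of 17 tested ER chaperones and folding enzymes, 6 rose and 0 fell with DMSO at 8 h against 0 h, where HSPA5 fell, and with the deposited scaling 2 rose and 2 fell. The median of the list was 0.47. CANX, calnexin, the lectin chaperone, went from 650 ± 41.8 to 2030 ± 354 CPM (log2 difference 1.63, limma adjusted p = 1.02e-05). CRELD2, an ER folding factor, went from 342 ± 46.3 to 992 ± 182 CPM (1.53, limma adjusted p = 2.23e-06), and P4HB, a disulfide isomerase, from 362 ± 10.3 to 841 ± 73.7 CPM (1.21, 8.52e-05). CANX (0.88) and CRELD2 (0.78) were the 2 still called higher with the deposited scaling.

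Of 11 ER-associated degradation genes tested, 5 rose and 2 fell, with a median of 0.62. OS9, a lectin that picks misfolded glycoproteins, rose by 1.69 (limma adjusted p = 4.12e-06), UFD1 by 1.33 (0.000326) and VCP, the extracting ATPase, by 0.81 (0.00082). The ubiquitin ligase SYVN1 fell by 1.41 (limma adjusted p = 0.00217) and its partner SEL1L fell by 1.39 (0.00176). With the deposited scaling OS9 was the only rise, and 3 genes fell, SYVN1 and SEL1L among them.

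Of 29 tested targets of ATF4 and CHOP, 5 rose and 6 fell, with a median of 0.33, and neither count exceeds the share over all genes. PHGDH, the first enzyme of serine synthesis, went from 137 ± 29.6 to 522 ± 92.0 CPM (1.93, limma adjusted p = 2.15e-05), and PCK2 rose by 1.21 (5.56e-05) and NARS1, a tRNA synthetase, by 1.12 (0.00114). SLC38A2, an amino acid transporter, went from 205 ± 26.2 to 11.7 ± 5.32 CPM (-4.09, 4.72e-10) and the transcription factor gene CEBPB from 38.6 ± 1.78 to 2.39 ± 0.423 CPM (-3.55, 2.45e-07), while VEGFA fell by 1.91 (0.00293). SLC38A2 and CEBPB were also the 2 members of the list already called lower at 2 h (-1.88 and -1.92). With the deposited scaling PHGDH was the only rise and 9 genes fell.

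Of 11 tested eIF2 kinases and translation factors, EIF2AK1 rose by 1.11 (limma adjusted p = 0.00531), and EIF2AK4 (-1.10, 0.0174) and PPP1R15B, the constitutive partner of the eIF2 phosphatase (-1.53, 0.018), fell. Of 6 tested ER stress sensors and their proteases, MBTPS2, the protease that frees ATF6, fell by 0.72 (0.0316), and the other 5 were not called. With the deposited scaling there were 0 rises and 4 falls in the first of these lists and 0 and 3 in the second.

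**Figure D4:**
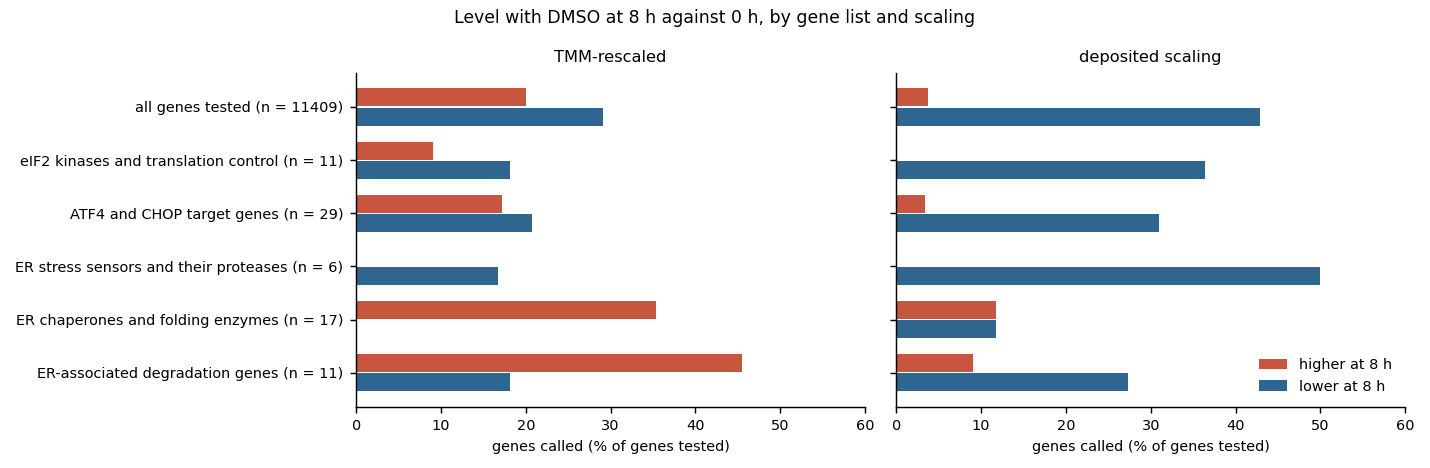
Share of genes tested in each pathway list (horizontal axis, percent) called higher (red) or lower (blue) with DMSO at 8 h than at 0 h, with the rescaling (left panel) and with the deposited scaling (right panel). Over all 11409 genes tested 2279 were higher and 3315 (29.1%) lower on the left, and 433 were higher and 4897 lower on the right. The rises of chaperone and degradation genes on the left, 6 and 5, come to 2 and 1 on the right.

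Against DMSO the lists hardly moved in level. With KB742 0 genes of the 5 lists were called at any time by limma. With the deposited scaling 3 were called higher at 8 h, 1 each among the ATF4 and CHOP targets, the sensors and the degradation genes, beside 209 of all 11409 genes. At an unadjusted p under 0.05 there were 8 of 29 ATF4 and CHOP targets, 2 of 6 sensors, 3 of 11 degradation genes, 1 of 17 chaperones and 1 of 11 translation genes at 8 h, beside 1586 of all 11409 genes. With KI-ARv-03 at 8 h MBTPS2 (1.21, limma adjusted p = 0.015) and CREB3L2 (1.20, 0.0442), 2 of the 6 sensor and protease genes tested, were higher, beside 223 of all 11409 genes. These calls held with the deposited scaling (limma adjusted p = 0.00955 and 0.0382), which added 1 degradation gene, beside 290 of all genes called higher. The other alternatives were not followed for single genes of the lists. When only the groups compared were fitted, the 336 calls over all genes with KI-ARv-03 at 8 h became 13. At an unadjusted p under 0.05 there were 7 of 29 targets, 2 of 6 sensors, 1 of 11 degradation genes, 5 of 17 chaperones and 1 of 11 translation genes, beside 1943 of all genes. By conversion, where 34.2% of all genes were called lower at 8 h with KB742 and 36.7% with KI-ARv-03, 8 and 10 of 21 tested ATF4 and CHOP targets were lower, and 5 and 7 of 9 degradation genes. The counts were 2 and 4 of 15 chaperones, 2 and 1 of 5 sensors and 1 and 1 of 10 translation genes, so the lists lie on either side of the shares over all genes. None was higher. NUPR1, a stress-induced chromatin protein, went from 16.7% ± 2.51 with DMSO to 2.68% ± 0.760 with KB742 and 3.36% ± 0.745 with KI-ARv-03 (limma adjusted p = 1.32e-10 and 4.81e-10). MANF, an ER-stress-induced secreted factor, went from 2.98% ± 1.14 to 0.679% ± 0.427 and 0.637% ± 0.257 (limma adjusted p = 0.000125 and 8.93e-05).

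The 10 genes did not move as 1 block over the 10 groups. Across the 10 group means of log2 level, TRIB3 and XBP1 ran most alike (r = 0.97), followed by XBP1 and HERPUD1 (0.92), DDIT3 and HERPUD1 (0.90) and ATF4 and SESN2 (0.89). ASNS ran against XBP1 (-0.86) and TRIB3 (-0.85). SESN2 was loosely related to HERPUD1 (0.22) and HSPA5 (-0.17). These are descriptions over 10 points that share libraries, scaling and the time course, with no test.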

How the data were processed

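RNA of 22Rv1 cells was measured by SLAM-seq in 30 libraries of 10 groups, from 3′ end libraries aligned to hg19, per the submitters' processing notes and the labels' protocols. Which aligner and which caller of conversions were used is not given in the sources used here. The level values were scaled by the authors to a common total and deposited as a signal headed CPM, whose sum differs between libraries. The fraction headed CONVERSION was computed by the authors per transcript, and its numerator and denominator are not given in the deposited table, so its counting error is unknown. Whole reads were recovered from the CPM steps for 100.0% of values (within 0.05 of a read).

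Of 85618 rows, 22339 genes with a symbol were kept, as 1 transcript each, and rows without a symbol held 0.478% of reads. Levels were rescaled by TMM (edgeR 4.0.16), filtered at a minimum count of 10, and tested with limma 3.58.1 in R 4.3.3 on log2(CPM + 1), so that fold changes of low genes are understated. For conversion, limma was run on arcsine-square-root values, leaving out those under 20 reads and asking for at least 2 values per group. Both fits held all 10 groups, with Benjamini-Hochberg adjustment over all genes tested and a threshold of 0.05. Tested on simulated data for KB742 against DMSO at 8 h (11409 genes, 200 changed 4-fold), the level test called 169 genes. Of these, 144 had been changed and 25 had not, so more false calls than the threshold names. The level changes were set only in better-read genes. SESN2, with 510 reads over the 30 libraries, lies below that cut, as do DDIT3, DDIT4 and PPP1R15A. How many changes the level test finds in genes read so thinly was not simulated. The conversion test called 169, of which 154 of 161 changed 10-fold and 15 not changed. Those changes were set only in well-read genes of higher conversion, with an assumed number of bases a read. With KB742 at 8 h ATF4, XBP1 and HSPA5 stood at 0.293, 0.359 and 0.452 times DMSO by conversion, which are smaller changes than those simulated. How many changes of that size the test finds was not simulated. The 10 genes and the lists were chosen with earlier results of these data known, and the comparison of DMSO at 8 h with 4 h was added after values were seen. Each list names up to 3 called genes per direction by adjusted p. Alternatives were other pseudocounts, scalings, filters, tools (DESeq2 1.42.0 and edgeR on recovered reads), the replicate number as a block, and left-out libraries. Some markers of the cell line are not reported here. Figures were drawn with matplotlib 3.10.9.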

Additional observations from a re-analysis of the deposited data

Results flagged for a closer look

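XBP1 with DMSO differed between 4 and 8 h in a direct test of the 2 times, with a log2 difference of -1.12 (limma adjusted p = 0.0394, range when single libraries were left out 0.0288 to 0.177). All 3 libraries at 8 h lay below all 3 at 4 h.

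PPP1R15A with KI-ARv-03 lay above DMSO in every library at 2 h (1.83, 3.70 and 1.90 CPM beside 1.06 to 1.82 CPM) and below DMSO in every library at 4 h (0.867 to 1.75 CPM beside 2.27 to 2.94 CPM). The difference at 4 h minus that at 2 h was -2.43 CPM and was not tested. It rests on 23 and 10 reads at 2 h and on 10 and 18 reads at 4 h. By limma neither difference from DMSO passed (0.54 ± 0.45 at 2 h, unadjusted p = 0.241, and -0.68 ± 0.45 at 4 h, unadjusted p = 0.142). The pattern was found by searching the 10 genes for groups that do not overlap. How often such a pattern occurs among all genes was not counted.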

How the results depend on the processing

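No called result of the 10 genes changed direction. ASNS at 8 h against 0 h, not called, went from 0.68 to -0.07 with the deposited scaling. In the lists, PDIA6 (0.59) and DERL1 (0.62) were called higher with DMSO at 8 h against 0 h. With the deposited scaling they were at -0.16 and -0.11 and not called. The 7 falls against 0 h at 8 h stayed 7 when any single library was left out, and the count at 4 h ran from 4 to 7. Counts of falls against 0 h here include DDIT4 and PPP1R15A, for which a fall was built into their being tested. HERPUD1, DDIT3, XBP1, TRIB3 and HSPA5 each stayed called at 8 h without any single library (limma adjusted p up to 0.00166). The 3 falls at 2 h became 0 with a pseudocount of 0.25, 5 with the deposited scaling, 1 without the libraries that stand apart (an alternative chosen after seeing the data), and 0 to 1 without single libraries. The call of KB742 at 8 h became 0 when only the groups compared were fitted. The call between DMSO at 8 and 4 h became 0 in edgeR, in the fit of the groups compared only and with the replicate block, 2 in DESeq2, and 0 to 1 without single libraries. For conversion, the call at 2 h against 0 h became 2 with at least 50 reads, 0 without the libraries that stand apart, and 0 to 1 without single libraries. The 4 calls at 8 h became 2 with at least 50 reads, where fewer genes could be tested. At 4 h the 3 calls of KB742 and the 1 of KI-ARv-03 each became 0 on the log2 scale, and 1 to 3 and 0 to 2 without single libraries. The 0 calls of effects at 8 h against 2 h became up to 2 for KB742 and 1 for KI-ARv-03, and those of DMSO at 8 h against 4 h up to 2. The cause was not tested in the other cases. Of all genes by level, 310 were called at 2 h against 0 h, from 78 (pseudocount of 0.25) to 725 (deposited scaling). The 210 of KB742 and 336 of KI-ARv-03 at 8 h became 1 and 13, and the 256 of DMSO at 8 h against 4 h became 10, when only the groups compared were fitted, and the 1228 and 491 by conversion at 4 h became 445 and 32 on the log2 scale. At 2 h, 624 genes by conversion against 0 h became 289 without the libraries that stand apart.

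Replicate numbers did not pair the libraries: deviations of same-numbered libraries correlated at -0.00264, -0.0227 and -0.00787 on average (45 pairs each). With the replicate block the calls of HERPUD1 at 2 h against 0 h (limma adjusted p = 0.05), XBP1 between DMSO at 8 and 4 h (0.0508) and HSPA5 conversion with KB742 at 4 h (0.0527) were lost, and PPP1R15A at 4 h (0.0413) was gained. Read depth limits DDIT3, DDIT4 and PPP1R15A by conversion and SESN2 with the inhibitors, where 6 reads a group stand behind a level.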
